A study of Sus scrofa domesticus with 16 samples.

Results

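RPTOR encodes raptor, the scaffold subunit of mTOR complex 1, and the methylation differences described here are the 12 CpG sites that carry its symbol in the deposited table of differentially methylated sites (DMSs) of pig lung. These 12 were taken by that symbol from the 2349 sites of the table, and the table itself was selected on the measured values: each site is past 25 points in either direction and past a q-value of 0.05. The lungs came from 16 domestic pigs (Sus scrofa domesticus) and were examined by reduced representation bisulfite sequencing (RRBS), which reads cytosine methylation near the cut sites of the enzyme MspI. The 8 animals on the increased dose of cholecalciferol (vitamin D3) received 3000 IU/kg in the grower and 2500 IU/kg in the finisher diet, and the 8 on the standard dose received 2000 and 1500 IU/kg. Each group held 4 males and 4 females, the feed was otherwise the same, and the pieces were whole tissue from 1 lobe of the lung, so cell types cannot be told apart. The table gives for each site 1 q-value (a p-value adjusted for the number of sites tested) and 1 methylation difference in percentage points, read as increased minus standard. No source used here states that sign outright. It was inferred from how the study words hyper- and hypomethylated sites, and every gain and loss below would change places if it ran the other way. That wording is not uniform, since the study's discussion calls a gene hypermethylated whose listed difference is negative. Values per animal and read depths are not used here. No difference below therefore has a spread between animals, the depth behind it is unknown, and no interval is given.

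mTOR complex 1 is a kinase complex that lets cells grow when amino acids, energy and growth factors are at hand. Raptor holds the complex at the lysosome by binding the Rag GTPases, and it hands substrates such as the S6 kinases and the 4E-BP proteins to the kinase. It is also a target of AMPK, the kinase that senses low energy.

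In animals on the increased dose, 8 RPTOR sites were more methylated (gains) and 4 less methylated (losses) than in animals on the standard dose. All 12 lay in introns. The 6 sites nearest the 3' end were all gains, and all 4 losses lay among the 6 sites nearer the 5' end. Over the genome, at most 0.352% of the tested sites were DMSs (0.209% gains and 0.143% losses). Tested sites were counted up to the last row number of the table, and any after it are missed. Since every RPTOR site was chosen for being in the table, this background stands beside the counts without a test, and the differences and q-values are descriptions of the sites chosen.

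RPTOR spans 283 kb of chromosome 12 on the minus strand, from 1709121 to 1991844 of Sscrofa11.1. The RefSeq annotation gives 8 transcript models with a common 3' end. Of these, 4 start within 1.13 kb of each other at the 5' end, 2 start 43.2 and 44.1 kb further into the gene, and 2 start 68.8 and 69.0 kb into it. Introns are counted below in the longest model, which has 35 exons, and the sites are numbered 1 to 12 from the 5' end of the gene, so that genome positions fall as site numbers rise.

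The sequences of 7 sites are shown because they carry the pattern: the close neighbours of opposite direction (sites 1 and 2), the close neighbours of equal direction (8 and 9), the largest loss (3), and the neighbouring loss and gain of intron 4 (6 and 5). They are the plus strand of the RefSeq copy of Sscrofa11.1, with the CpGs of the table in capitals. All other bases are printed in lower case, whether or not the genome marks them as repetitive.
Sites 2 and 1, chr12:1933772-1933870: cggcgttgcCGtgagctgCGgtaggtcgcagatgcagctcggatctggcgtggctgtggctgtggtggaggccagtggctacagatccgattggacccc
Site 3, chr12:1878593-1878654: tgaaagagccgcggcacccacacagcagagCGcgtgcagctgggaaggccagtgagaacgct
Site 5, chr12:1858943-1859004: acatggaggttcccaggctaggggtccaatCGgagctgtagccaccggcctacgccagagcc
Site 6, chr12:1854872-1854933: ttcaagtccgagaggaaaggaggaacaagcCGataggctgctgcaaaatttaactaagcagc
Sites 9 and 8, chr12:1798136-1798221: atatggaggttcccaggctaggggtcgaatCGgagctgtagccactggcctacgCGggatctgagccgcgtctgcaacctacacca

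The 2 sites nearest the 5' end were neighbours of opposite direction. Site 1, at 1933790, had a difference of -40.1 points (q = 2.6e-27) and site 2, at 1933781, one of 34.5 points (q = 2.2e-23). They are 9 bp apart in intron 1, 58.1 kb downstream of the first start, and they were consecutive rows of the tested sites. Both lie downstream of the starts of 6 transcript models and upstream of the other 2, which begin 10.7 and 10.9 kb downstream of site 1. The first line of sequence starts at an MspI cut, from which site 2 is 9 bp and site 1 is 18 bp away, so that a read starting there would cover both. The fragment is 298 bp long and holds 11 reference CpGs, of which these 2 are in the table.

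The remaining losses were separated from the 5' pair by 55158 bp with 165 tested sites, none of them in the table. Site 3, at 1878623, had the largest difference of the gene, -44.7 points (q = 6.4e-23), which ranked 159 by size among the 2349 sites. Site 4, at 1874958, had -27.3 points and the weakest q-value of the gene (q = 7.1e-07, rank 2147). Both lie in intron 3 and are 3665 bp apart with 20 tested sites between them. No listed gain lay between these losses, which makes them the only neighbouring losses of the gene.

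Intron 4 held a gain and a loss. Site 5, at 1858973, gained 33.0 points with the smallest q-value of the gene (q = 1.5e-148), rank 21 in the table, whereas its size ranked 834. Site 6, at 1854902 and 4071 bp away, had -34.4 points (q = 6.9e-18), with 10 tested sites between. Site 6 is the loss farthest from the 5' end, 137 kb into the gene, and from there on only gains were listed.

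**Figure D1:**
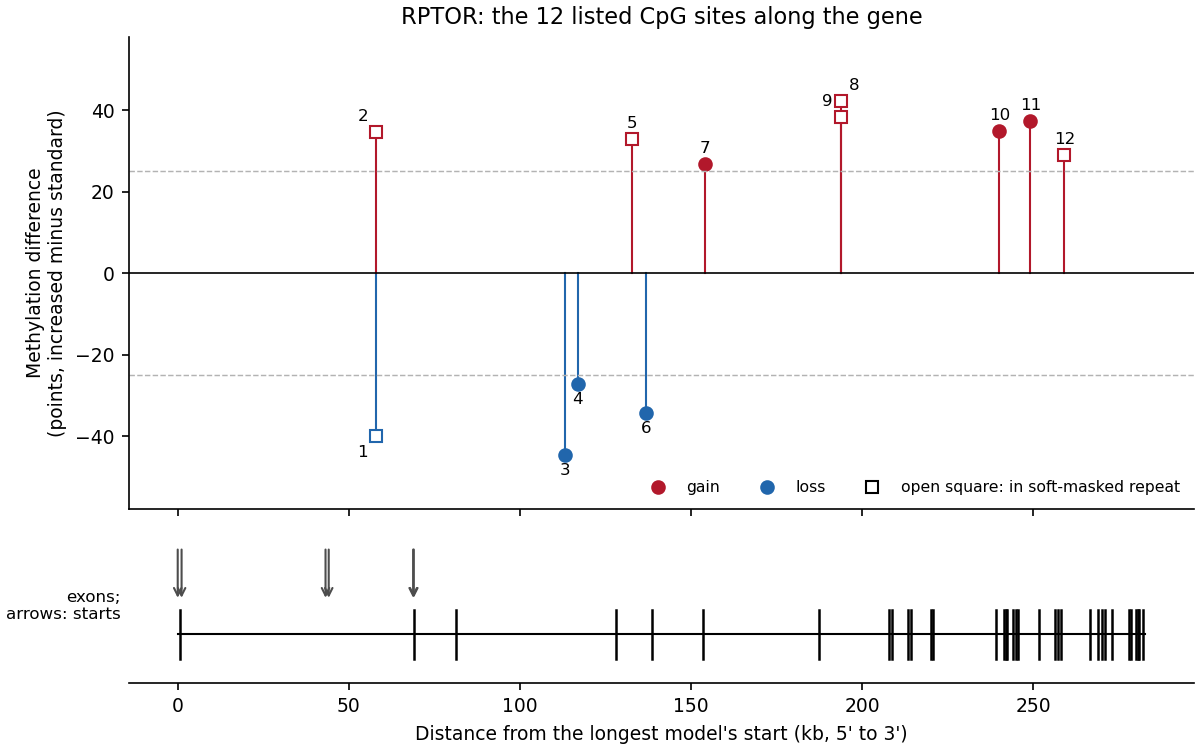
Difference in methylation of the 12 RPTOR sites, in percentage points, between the increased and the standard dose (vertical axis), against the distance in kb from the start of the longest transcript model (horizontal axis). Red marks are gains, blue marks losses and open squares sites in soft-masked repeats. Dashed lines stand at 25 points in either direction, exons are ticks below and arrows mark the starts of the transcript models. The 4 losses sit between 58.1 and 137 kb, and the 6 sites from 154 to 259 kb are all gains.

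The 6 gains of the 3' part spread over 105 kb and ranged from 26.7 to 42.2 points, with a median of 36.1 points. Site 7, at 1837759 in intron 6, gained 26.7 points (q = 3.6e-16), the smallest difference of the gene and the member nearest the limit of 25 points. The next smallest was site 4 with -27.3 points, and no site under the limit is in the table. Sites 8 and 9, at 1798190 and 1798166 in intron 7, gained 42.2 points (q = 2.1e-20) and 38.4 points (q = 1.2e-19). They are 24 bp apart and consecutive rows, like sites 1 and 2, but had the same direction and differed by 3.88 points.

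The last 3 gains lay among the crowded exons of the 3' end. Site 10, at 1751772 in intron 14, gained 34.8 points (q = 1.3e-17). Site 11, at 1742721 in intron 20, gained 37.3 points (q = 4.9e-23). Site 12, at 1732756 in intron 24, gained 29.0 points (q = 1.0e-18). Sites 10 and 12 are 926 and 937 bp from the nearest exon. Over all 12 sites that distance ran from 516 bp at site 7 to 14843 bp at site 3.

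**Figure D2:**
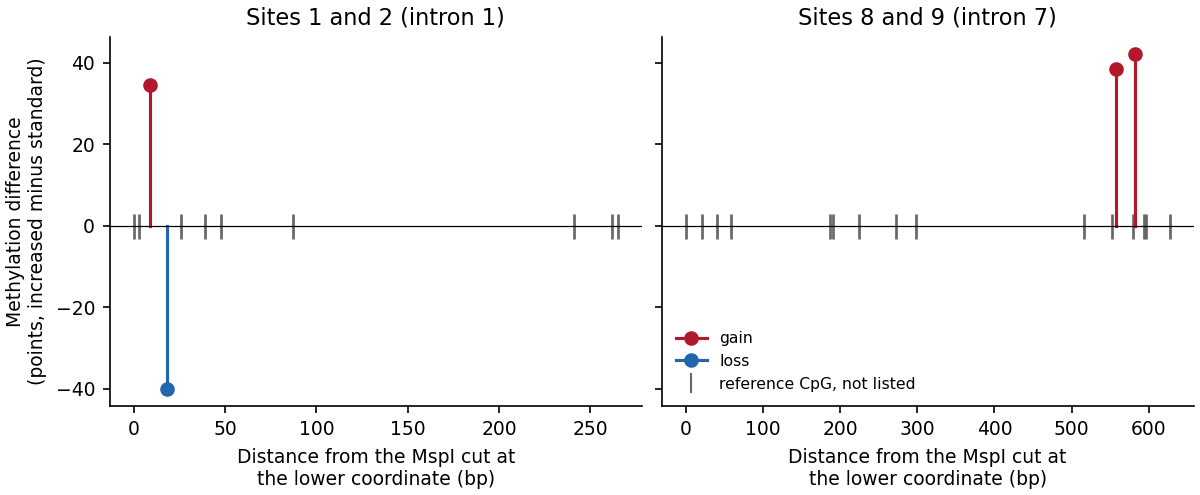
Difference in methylation between the increased and the standard dose, in percentage points, of the paired RPTOR sites (vertical axis) against the distance in bp from the MspI cut at the lower coordinate of their fragment (horizontal axis). Grey ticks are reference CpGs of the fragment that are not in the table. The pair of intron 1 has a gain of 34.5 and a loss of -40.1 points 9 bp apart, and the pair of intron 7 has gains of 38.4 and 42.2 points 24 bp apart.

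Along the gene the direction changed at 5 of the 11 steps from one site to the next. Of the 2 pairs of neighbours up to 100 bp apart in RPTOR, 1 had opposite directions, as had 41 (14.0%) of the 292 such pairs in the whole table. At 1 to 10 kb opposite directions were seen in 1 of 4 RPTOR pairs and in 21.8% of 101 pairs of the table. At 10 to 60 kb they were seen in 3 of 5 RPTOR pairs and in 27.8% of 284 pairs of the table. With so few pairs, chosen with their values known, no test was made. The sites of the opposite pair of RPTOR differed from each other by 74.6 points, which ranked 10 among the 41 opposite pairs, whose median was 65.0 points. Of those 41 pairs, 16 were on consecutive rows and 7 were no farther apart than 9 bp. The 5 largest such gaps ran from 78.1 to 87.9 points. The only gene symbol among them was EBF3, a transcription factor gene with differences of 40.8 and -45.7 points at sites 55 bp apart, and the other 4 pairs had no symbol.

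The sizes of the RPTOR differences were set beside those of the whole table. Their median size was 34.7 points, against 30.4 points over all sites. The 8 gains had a median of 34.7 points, against 30.7 points for all gains, and the 4 losses had a median of -37.2 points, against -29.8 points for all losses. Gains made up 66.7% of the RPTOR sites, 59.3% of the table and 68.4% of the 158 DMSs of chromosome 12. The median q-value was 7.1e-20 in RPTOR and 2.2e-15 in the table. None of these values was tested, because the sites are in the table through them.

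**Figure D3:**
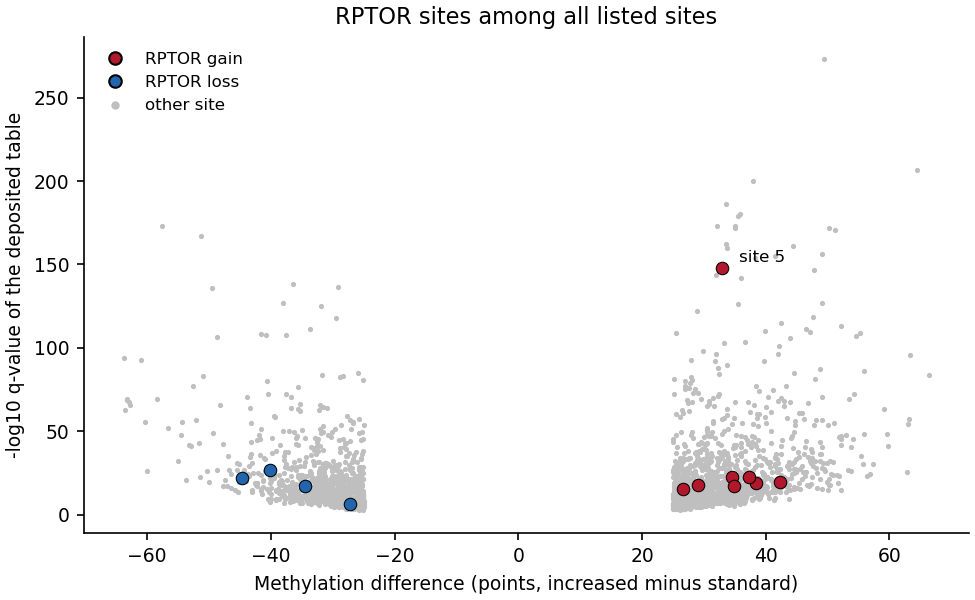
Each listed site by its difference in methylation between the increased and the standard dose, in percentage points (horizontal axis), and the -log10 of its q-value in the deposited table (vertical axis, higher is smaller q). Red and blue circles are RPTOR gains and losses and grey points the other sites, without 1 site whose q-value is 0. Site 5, with q = 1.5e-148, stands above the other 11 RPTOR sites, whose q-values run from 7.1e-07 to 2.6e-27.

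The row numbers of the table allowed the tested sites around the members to be counted. From site 12 to site 1 they covered 536 rows, of which 12 (2.24%) were DMSs, in a stretch with 10014 reference CpGs. That stretch was bounded by the listed sites themselves, which raises its share. Over all tested sites of the genome the share was at most 0.352%. Counting every tested site that the row numbers allow in the whole gene body, up to 1333, the share was at least 0.900%. Some of those rows may lie outside the gene. RPTOR was itself chosen with its listed sites known, so neither share was tested against that of the genome. Tested sites between consecutive members numbered from 0 in both close pairs to 165 between sites 2 and 3. Upstream of site 1, the next DMS lay 38.6 kb outside the gene at 2030489, a gain of 33.9 points with no symbol. The 93 tested sites in between, a stretch that includes the 5' end of the gene, were not in the table. On the 3' side the nearest DMS was 498 kb away, in HGS, at -37.7 points. The 2 protein-coding genes on each side of RPTOR had no DMS: CHMP6, a subunit of the ESCRT-III membrane-cutting complex, and LOC110256155 on the 3' side, and NPTX1, a neuronal pentraxin, and SLC26A11, an anion transporter, on the 5' side. The gain at 2030489 lay between RPTOR and the gene body of NPTX1, which runs from 2036727 to 2046202.

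The 12 sites fell into repeats and unique sequence in equal numbers. Sites 1, 2, 5, 8, 9 and 12 lay in sequence that the RefSeq genome marks as repetitive by lower case (soft-masked), and sites 3, 4, 6, 7, 10 and 11 did not. That is 6 of the 12 RPTOR sites, compared with 63.5% of the 2252 chromosomal DMSs and 12.5% of all 13627 CpGs in the gene body. The last share is over all reference CpGs and not over tested ones, so it is no background for the listed sites. The repeat sites were 5 gains and 1 loss, and the sites outside repeats were 3 gains and 3 losses. Sites 1 and 2 lay in the same soft-masked stretch, as did sites 8 and 9, so the repeat sites are not all separate repeats. Over all chromosomal DMSs, gains made up 60.7% of 1429 in repeats and 57.7% of 823 outside them.

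The surroundings of the repeat sites of RPTOR resembled each other in part. In the sequences shown, the 31 bases around site 5 and around site 9 differed at 2 positions, and over 85 aligned bases the surroundings were 90.6% identical. Both were gains, of 33.0 and 38.4 points. The surroundings of sites 1 and 2 matched those of site 8 on the opposite strand, with 81.6% identity over 76 aligned bases. Here site 1 was a loss (-40.1 points), and sites 2 and 8 were gains (34.5 and 42.2 points). Site 12 matched site 5 with 82.7% identity over 75 bases. The repeats are not named in the files used here.

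Some of these windows recur in the genome. As written in the reference, the 31 bases around site 5 occurred 6573 times, those around site 9 3841 times and those around site 12 62 times, counting both strands. Those around sites 1, 2 and 8 occurred once, as did those around the 6 sites outside repeats. After conversion of every C to T, as bisulfite reads show unmethylated cytosines, the 31 bases around site 9 occurred 46027 times, those around site 5 30531 times and those around site 12 10987 times. Converted counts were 41 at site 2, 29 at site 1, 5 at site 8 and 1 at each of the 6 sites outside repeats. With 151 bases in place of 31, each of the 12 converted windows had exactly 1 match, itself. Near matches were not counted, and what part repeated sequence has in the listed differences was not tested.

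Each of the 12 sites lay in a stretch that met the lenient definition of a CpG island (200 bp, GC share over 0.5, observed over expected CpG over 0.6), compared with 70.6% of chromosomal DMSs. Under the strict definition (500 bp, 0.55 and 0.65), 9 of the 12 did, compared with 17.3% of chromosomal DMSs. The exceptions were sites 1, 2 and 12. Within 250 bp to each side, the median was 4.58 CpGs per 100 bp at RPTOR sites and 3.39 at chromosomal DMSs. Values at single RPTOR sites ran from 3.19 at site 2, under that median, to 8.76 at site 7. The gene itself is rich in CpGs: its body holds 13627 in 283 kb, no fewer per base than the median at its listed sites. Whether the listed sites differ in context from the rest of the gene was not tested. The median GC content was 53.5% at RPTOR sites and 49.4% at chromosomal DMSs. Site 11 had the highest GC content at 70.3% and site 6 the lowest at 44.6%. RPTOR gains and losses had medians of 53.5% and 51.2%. The MspI fragments of the 12 sites ran from 115 bp at site 6 to 630 bp at sites 8 and 9, and 6 of the 12 sites were in fragments of 40 to 220 bp, compared with 33.3% of chromosomal DMSs.

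Other genes of the mTOR pathway carried fewer DMSs. Of 102 genes listed by role, 8 (7.84%) had at least 1 site by symbol, and 4.29% of the 19535 RefSeq protein-coding symbols did. Neither share allows for gene length or for the number of tested CpGs. Sites of 7 of the 8 genes were gains and those of 1 were losses.

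Among subunits and assembly factors of the mTOR complexes, 3 of 11 genes had sites, all gains. DEPTOR, an inhibitory subunit of both complexes, gained 40.5 points (q = 1.8e-31). MAPKAP1, which encodes the complex 2 subunit SIN1, had gains of 32.3, 29.6 and 35.8 points, the last outside its RefSeq gene body. PRR5, a complex 2 subunit, gained 30.7 points (q = 5.2e-13). MTOR itself, and MLST8 and AKT1S1, the other subunits that raptor works with, had no site.

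None of the 9 genes of the Rheb and Rag GTPases and the TSC complex, which relay growth factor and amino acid signals to raptor's complex, had a site. None of 31 genes of amino acid sensing and transport, 29 of them in the RefSeq annotation, had a site by symbol. However, a site of -26.3 points, given to SNORD30 in the table, lay in the RefSeq gene body of SLC3A2. SLC3A2 is the heavy chain of an amino acid transporter. Over all RefSeq protein-coding symbols the share with a site was 4.29%, and the counts of 0 in these 2 roles were not tested against it. Among 25 genes of growth factor and energy input, PRKAG2, a regulatory subunit of AMPK, had losses of -28.2, -31.7 and -33.6 points, and IRS2, an adaptor of the insulin receptor, gained 25.3 points (q = 1.2e-08). Among 26 substrates and outputs, 3 genes had 1 gain each. EIF4EBP2, a translation repressor that raptor recruits, gained 31.6 points (q = 5.1e-66). EEF2K, the kinase of elongation factor eEF2, gained 26.2 points, and GRB10, an adaptor that dampens insulin signalling, gained 28.5 points.

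**Figure D4:**
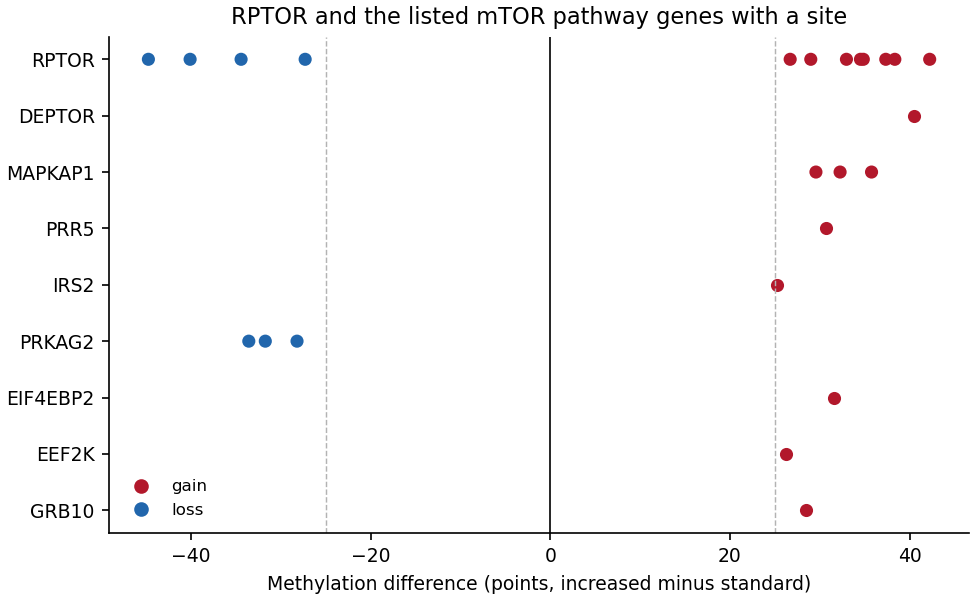
Difference in methylation between the increased and the standard dose, in percentage points, of each listed site (horizontal axis) for RPTOR and the 8 genes of the mTOR pathway list with a site (rows). Red points are gains, blue points losses and dashed lines 25 points in either direction. Only RPTOR has both colours, and PRKAG2 is the only other gene with losses.

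RPTOR was compared in direction with the other genes that had at least 6 DMSs on 1 chromosome or scaffold. There were 9 such genes with RPTOR: 3 with gains only, 1 with losses only and 5 with both. The 5 nearest to RPTOR in the share of gains were CUX1, a homeobox transcription factor (4 gains and 3 losses), TBCD, a tubulin folding cofactor (2 and 4), AGAP1, an ARF GTPase-activating protein (19 and 0), MYT1L, a neuronal transcription factor (12 and 0), and MARK3, a kinase (9 and 0). The share of gains was 66.7% in RPTOR and 57.1% in CUX1, the only one of these genes within 10 points, and the sites of both spanned 201 kb. The direction changed at 5 steps along the 12 sites of RPTOR, at 2 along the 7 of CUX1 and at 2 along the 6 of TBCD. It changed at 1 step in each remaining gene with both directions. The 9 sites of MARK3 lay within 0.067 kb of a scaffold, unlike the spread of sites in RPTOR. These genes were picked for their many sites and no test was made between them.

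**Figure D5:**
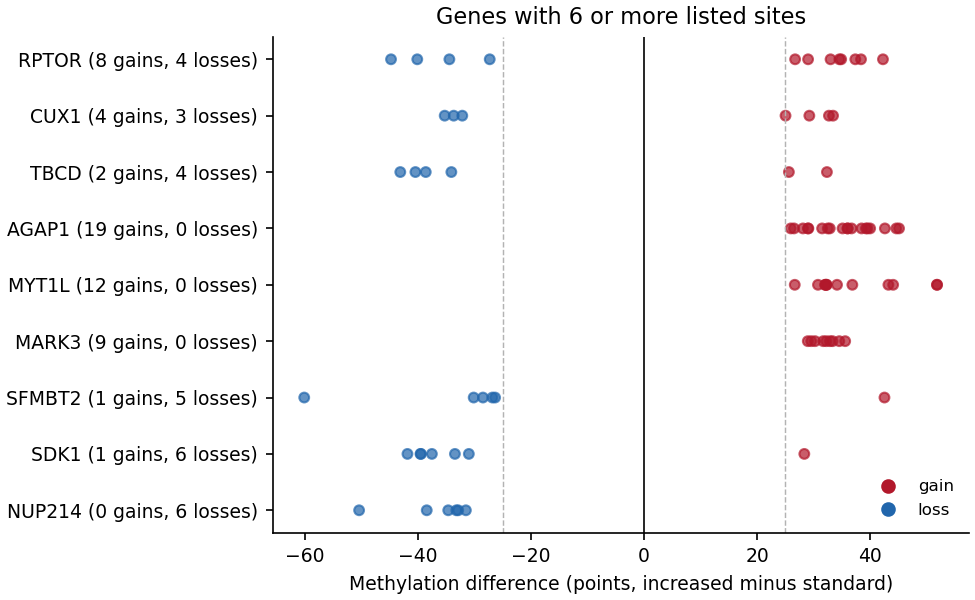
Difference in methylation between the increased and the standard dose, in percentage points, of each listed site (horizontal axis) for the 9 genes with at least 6 sites on 1 chromosome or scaffold (rows, ordered by nearness to RPTOR in the share of gains). Red points are gains, blue points losses and dashed lines 25 points in either direction. RPTOR has 8 gains and 4 losses, between -44.7 and 42.2 points.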

How the data were processed

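In the study's methods, RRBS reads were checked with FastQC, trimmed with FlexBar and aligned to Sscrofa11.1 by BSMAP in its mode for MspI fragments. CpGs covered by more than 5 reads entered methylKit 1.26.0. The authors deposited the sites that passed 25 points and a q-value of 0.05, each with its q-value and its methylation difference, a signed score in percentage points. Gene symbols came from the Ensembl annotation. No source used here says whether the test took animals or reads as its unit. With reads as the unit, q-values come out too small. The q-values given above, down to 1.5e-148 at site 5, and their ranks are therefore not read as agreement between animals.

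Members were the rows with the symbol RPTOR. The members, the pathway list of 102 genes (98 of them in the RefSeq annotation) and the other rules were chosen with earlier results of these data known, and every comparison is a description. Each of the 2252 sites on chromosomes falls on the C of a reference CpG in RefSeq's Sscrofa11.1, from which gene models, soft-masking and sequences were taken. The table's row numbers, up to 667810, were read as numbers of tested sites: the step between neighbours exceeded the reference CpGs between them in 0 of 2232 pairs. Scripts ran in Python 3.11.15 with pandas 2.3.3, NumPy 2.4.6 and Biopython 1.88, which aligned 121 bases around the repeat sites locally (match 1, mismatch -1, gap opening -2, extension -1). The counting functions were tested on simulated sequence. Named genes were RPTOR, pathway genes with a site, the 2 protein-coding genes on each side, the 5 genes nearest to RPTOR in the share of gains among those with at least 6 sites, and the genes of the 5 opposite pairs with the largest gap. HGS, SLC3A2 and SNORD30 were named after their values were seen.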

Additional observations from a re-analysis of the deposited data

How the results depend on the processing

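With a limit of 35 points RPTOR kept 3 gains and 2 losses. Outside soft-masked sequence, and equally at sites whose 31-base window is unique after conversion of C to T, alternatives chosen after seeing the data, it had 3 gains beside 3 losses. The pathway genes with a site numbered 5 at 30 points, and the share of tested sites was at least 0.900% over the RefSeq gene body. In each of these the alternative leaves fewer sites or counts more tested ones. Merging neighbours at most 100 bp apart left 6 gains and 4 losses, but the merged sites 1 and 2 averaged -2.78 points, under the limit of 25. Counts stayed within 1.5 times for the other alternatives: 30 points (6 gains and 3 losses), a q-value under 1e-10 (8 and 3), the gene body whatever the symbol (8 and 4), gaps of 50 or 1000 bp, strict islands, windows of 100 or 500 bp and pathway gene bodies. No paired analysis was possible because the table holds no values per animal; for the same reason no coverage minimum was tried and no animal left out. Read depth, which is unknown here, limits how firmly any single difference can be read.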
